A study of Mus musculus with 3 samples.

Results

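The genes described here build and run the contractile apparatus of heart muscle: 34 genes for the thick and thin filaments, the Z-disc, titin and the M-band, excitation and calcium handling, the natriuretic peptides, desmin and stress proteins. They were taken by gene name from the scanner output of each array, with control spots left out and every probe of a gene kept. All 34 were on the array, with 51 probes on 69 spots, out of 39429 probes. Of the 34, 27 had a probe bright enough to be tested, among 20388 genes tested in all.

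The RNA came from mouse embryoid bodies, aggregates that embryonic stem cells form in suspension and in which they differentiate into many cell types. They were grown for 10 days in low attachment plates without LIF, the cytokine that holds mouse embryonic stem cells undifferentiated. The wild-type group was compared with a group labelled Dido3deltaCT+HADido3CT, in which the Dido3 protein lacked its C-terminal region and that missing region, encoded by exon 16, was overexpressed with an HA tag; it is called mutant+CT here. There were 3 biological replicates of each of the 2 conditions, and 3 arrays, each holding 1 wild-type and 1 mutant+CT RNA in different dyes. Wild type was in Cy5 on arrays 1 and 3 and in Cy3 on array 2. Neither the truncation nor the overexpressed fragment was present by itself in any group, so every ratio holds both, and the sources used here do not give the number of stem cell lines behind the replicates.

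Heart muscle cells contract by sliding actin-containing thin filaments past myosin-containing thick filaments, in units called sarcomeres that are bordered by Z-discs and spanned by titin. Calcium that enters through surface channels releases more calcium from the sarcoplasmic reticulum through the ryanodine receptor, and its binding to troponin lets myosin engage actin. In embryoid bodies of mouse stem cells these genes come on as patches of beating cells form. Several of them are also used by slow skeletal muscle, and desmin, Cryab and Ankrd1 are made by other muscle and stressed cells as well.

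Promoter sequence from RefSeq (build GRCm38.p6) was available for 30 of the 34 genes, as 38 windows covering the 250 bases before an annotated transcript start. Of 8 short motifs searched on both strands, the CArG box, the element bound by serum response factor, was in 6 of the 38 windows (15.8%), against 1.47% of 32851 windows over all genes. These windows belong to 5 genes, since 2 are overlapping Ldb3 windows that hold the same site. The MEF2 motif was in 4 of 38 windows (10.5%), against 2.92% of all windows. No window held both. The windows below are shown because some genes with the same element had similar ratios in these arrays and others had different ones, as described further on. Capitals mark the CArG box in Actc1, Myl7, Myl3 and Myom1 and the MEF2 motif in Ttn and Mybpc3. Each is written 5′ to 3′ on the strand of its gene: Actc1 at chr2:114052876-114053125 on the minus strand, Myl7 at chr11:5898783-5899032 on the minus strand, Myl3 at chr9:110763428-110763677 on the plus strand, Myom1 at chr17:71019307-71019556 on the plus strand, Ttn at chr2:76982548-76982797 on the minus strand and Mybpc3 at chr2:91117894-91118143 on the plus strand.
Actc1: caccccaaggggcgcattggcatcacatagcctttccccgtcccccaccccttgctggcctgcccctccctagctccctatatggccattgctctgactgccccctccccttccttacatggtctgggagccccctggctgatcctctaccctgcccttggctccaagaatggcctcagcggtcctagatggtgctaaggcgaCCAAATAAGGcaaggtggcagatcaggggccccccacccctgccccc
Myl7: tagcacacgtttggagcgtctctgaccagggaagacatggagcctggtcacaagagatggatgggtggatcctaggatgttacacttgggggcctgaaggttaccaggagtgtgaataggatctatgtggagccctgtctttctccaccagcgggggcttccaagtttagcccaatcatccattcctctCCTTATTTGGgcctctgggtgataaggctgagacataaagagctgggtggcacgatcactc
Myl3: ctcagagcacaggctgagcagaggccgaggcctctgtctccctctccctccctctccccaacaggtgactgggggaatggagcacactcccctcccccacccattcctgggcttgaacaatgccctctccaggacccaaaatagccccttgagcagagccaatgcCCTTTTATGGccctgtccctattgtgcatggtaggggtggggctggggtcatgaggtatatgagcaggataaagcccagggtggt
Myom1: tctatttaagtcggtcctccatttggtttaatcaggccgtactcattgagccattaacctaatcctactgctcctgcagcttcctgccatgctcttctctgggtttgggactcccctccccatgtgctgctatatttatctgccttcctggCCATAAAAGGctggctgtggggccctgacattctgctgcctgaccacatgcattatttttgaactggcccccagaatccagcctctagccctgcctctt
Ttn: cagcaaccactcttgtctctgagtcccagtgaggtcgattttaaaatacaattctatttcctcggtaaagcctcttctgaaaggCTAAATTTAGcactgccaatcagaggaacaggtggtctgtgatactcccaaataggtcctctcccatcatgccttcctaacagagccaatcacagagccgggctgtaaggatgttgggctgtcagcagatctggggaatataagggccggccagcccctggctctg
Mybpc3: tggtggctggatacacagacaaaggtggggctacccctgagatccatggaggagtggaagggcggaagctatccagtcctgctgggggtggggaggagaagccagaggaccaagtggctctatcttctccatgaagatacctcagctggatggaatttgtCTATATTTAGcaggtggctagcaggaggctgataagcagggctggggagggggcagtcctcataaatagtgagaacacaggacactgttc
A match is a run of letters and not a measured binding site. The other motifs were in members' windows at 18.4% (AGATAA), 23.7% (CATTCC), 23.7% (CAGCTG), 10.5% (TATAAA), 7.89% (TNAAGTG) and 2.63% (CACGTG), against 9.99%, 12.6%, 13%, 12.4%, 10.1% and 6.02% of all windows.

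Between 68.1% and 78.5% of spots were well above background in each dye channel, no spot was saturated, and the 3 arrays limit the precision. Over all genes tested, the log2 ratios of arrays 1 and 2 correlated at 0.18, of arrays 1 and 3 at 0.54 and of arrays 2 and 3 at 0.38; these describe genes, which are not independent replicates. Of the 4 probes named for Dido1, 1 read 3.42, 3.53 and 3.66 on the 3 arrays and another -3.85, -1.40 and -1.93, and which of them lie in the deleted or overexpressed stretch was not determined here. In what follows a ratio is log2 of mutant+CT over wild type on 1 array, and a level is the normalised log2 signal of 1 RNA in its own channel. Levels are compared between RNAs for the same probe and, apart from sums of linear signal over a gene list, not between genes. Brighter probes weigh more in such sums. In RNA from whole embryoid bodies, fewer cells of a type and less RNA per cell cannot be told apart.

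Taken over the whole set, array 1 stood against arrays 2 and 3. The median log2 ratio of the 27 tested genes was 1.87 on array 1, -0.38 on array 2 and -0.33 on array 3, where all 20388 genes had medians of 0.01, 0.01 and 0.02. On array 1, 24 of the 27 genes were higher in mutant+CT and 3 were lower; on array 2, 8 were higher and 19 lower; on array 3, 10 were higher and 17 lower. At least 2-fold higher levels in mutant+CT were seen for 19 of the 27 genes on array 1, where the background over all genes was 9.02%, and at least 2-fold lower levels for 1, Cryab (4.77%). On array 2, 3 genes were at least 2-fold higher (6.3%) and 8 at least 2-fold lower (8.02%); on array 3, 2 were higher (13.8%) and 9 lower (10.1%) by that much. On both arrays 2 and 3, 6 of the 27 (Actc1, Myh7, Myl3, Myl7, Tnnc1 and Tnni1) were at least 2-fold lower, against 2.55% of all genes. The 5 of these other than Myl3 were at least 2-fold higher on array 1 and at least 2-fold lower on both other arrays, a pattern seen in 0.314% of all genes. Without the fold limit, 11 of the 27 were higher on array 1 and lower on arrays 2 and 3 (8.95%).

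Averaged over the arrays, none of the 27 genes differed between the conditions at an adjusted p under 0.05. limma's moderated test with Benjamini-Hochberg adjustment over all genes called 0 of 20388 genes (0%), and the smallest adjusted p was 0.0734 over all genes and 0.106 among the 27. At an unadjusted p under 0.05 there were 4 of 27 genes (14.8%): Ankrd1, Casq2, Cryab and Myl3. Over all genes that share was 15.7%, so the 4 are near the background. With probes required to be above background in both channels, 24 of the cardiac genes were tested, without Casq2, and 3 had an unadjusted p under 0.05. With 3 arrays the smallest two-sided p an exact sign-flip test can give for 1 gene is 0.25. The median of the genes' mean log2 ratios was 0.33, against -0.0025 over all genes, and leaving out array 1 turned it to -0.24, with 10 genes higher and 17 lower; leaving out array 2 gave 0.93 and leaving out array 3 gave 0.67. A fit of the separate channels with a dye term, added after the data were seen, called 3812 genes (18.7%), among them Ankrd1, Casq2, Cryab and Myl3; without the dye term it called 465 genes (2.28%) and 0 of the 27. Agilent's processed signals gave 290 genes (1.42%) and 0 of the 27, and a trended and robust variance prior 176 (0.863%) and 0. Relaxing the adjusted threshold to 0.1 gave 298 genes (1.46%) and 0 of the 27.

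**Figure D1:**
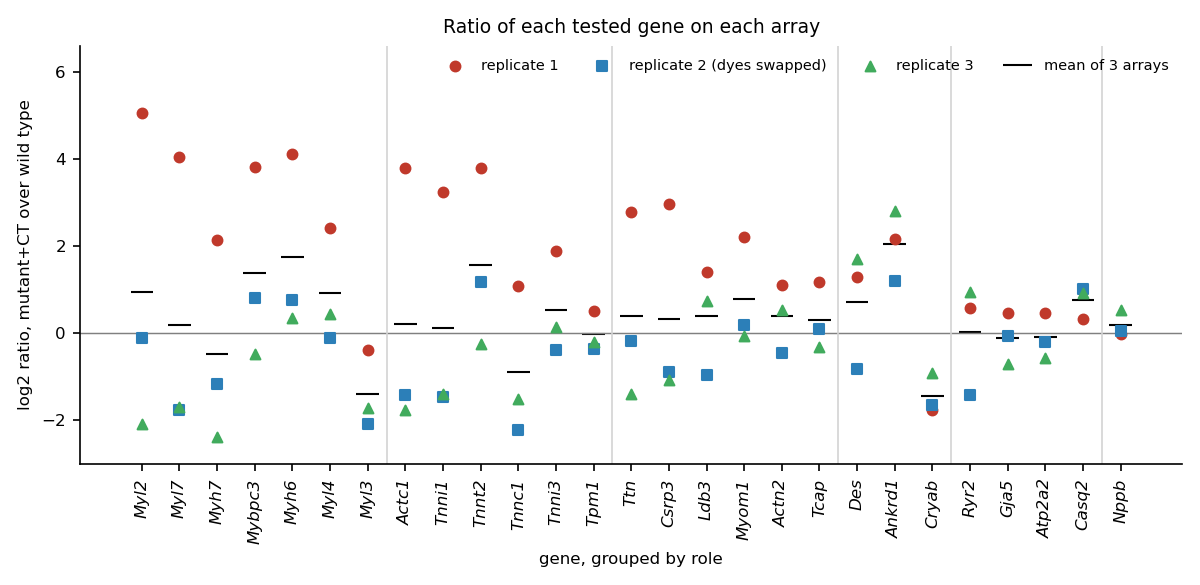
Log2 ratio of mutant+CT over wild type (vertical axis) for each of the 27 tested genes (horizontal axis, grouped by role, grey lines between groups) on arrays 1 (red circles), 2 (blue squares) and 3 (green triangles), with the mean of the 3 arrays as a black bar. For 24 of 27 genes the array 1 point lies above 0, while 19 and 17 genes lie below 0 on arrays 2 and 3.

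Reading the channels singly showed which RNA set array 1 apart. The mutant+CT RNA of replicate 1 had the highest level of the 6 RNAs for 19 of the 27 genes, against 18.5% of all genes. It stood at least 2-fold above each of the other 5 RNAs for 13 of the 27, against 1.8% of all genes. Wild-type replicate 2 was highest for 5 genes, mutant+CT replicate 2 for 3, and the other 3 RNAs for 0. The lowest level was in mutant+CT replicate 3 for 12 genes (18% of all genes), in wild-type replicate 3 for 7, in wild-type replicate 1 for 4, in mutant+CT replicate 2 for 3 and in wild-type replicate 2 for 1.

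As a deviation from each gene's mean over the 6 RNAs, the 27 genes had medians of -0.12, 0.19 and -0.34 in wild-type replicates 1 to 3. In mutant+CT replicates 1 to 3 the medians were 1.28, -0.28 and -0.56. The standard deviation between the 3 RNAs of a condition had a median over the 27 genes of 0.686 in wild type and 1.21 in mutant+CT, on the log2 scale. Over all genes the medians were 0.362 and 0.403. The standard deviation was larger in mutant+CT for 21 of the 27 genes, against 55.6% of all genes. The wild-type RNAs also varied more for these genes than for genes at large, as the 2 medians show. The mutant+CT RNA of replicate 1 was at least 2-fold above the mean of the other 2 mutant+CT RNAs for 19 of 27 genes (9.94% of all genes), and the wild-type RNA of the same array was at least 2-fold above the other 2 wild-type RNAs for 1, Actc1 (4.28% of all genes).

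**Figure D2:**
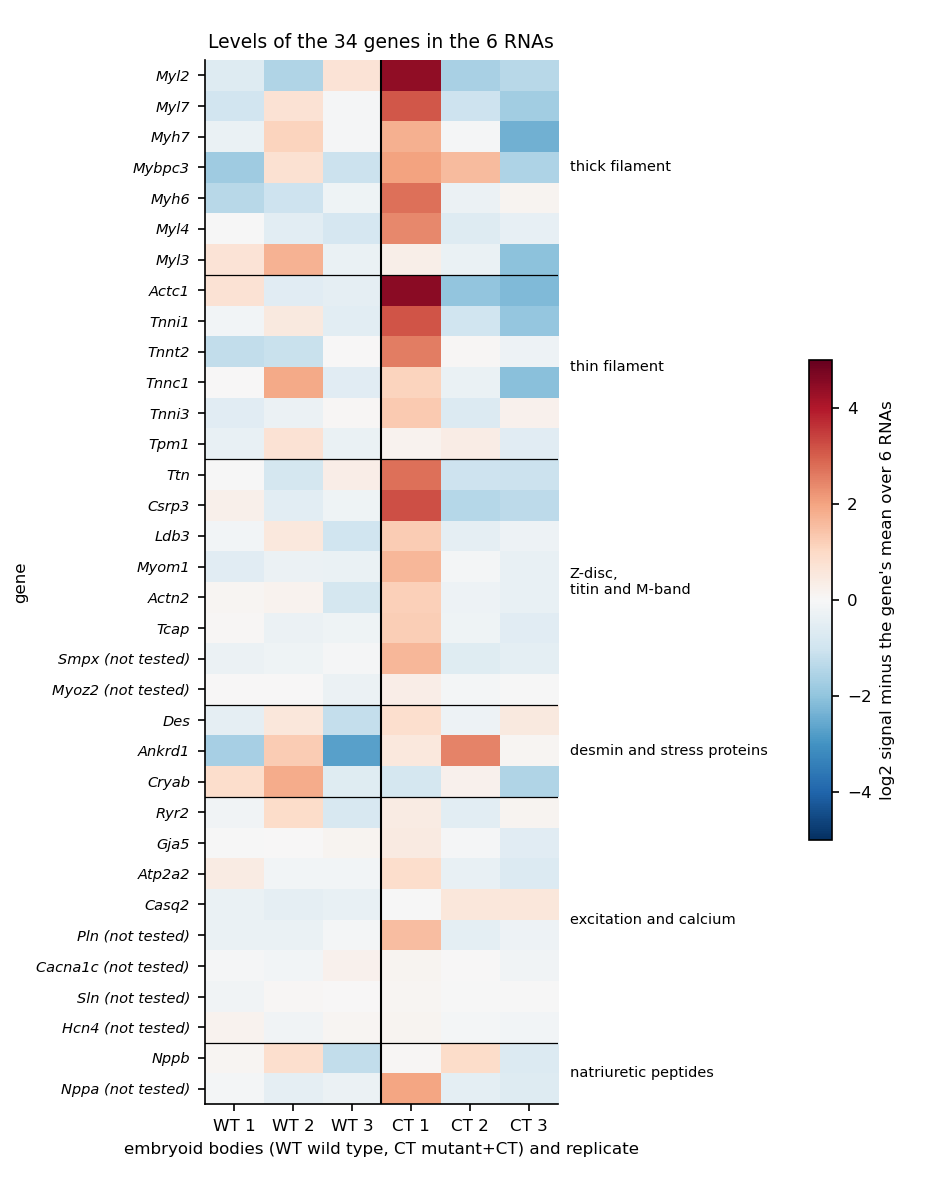
Level of each of the 34 genes (rows, grouped by role) in the 6 RNAs (columns, WT for wild type and CT for mutant+CT, replicates 1 to 3), drawn as log2 signal minus the gene's mean over the 6 RNAs, red above and blue below. The column of mutant+CT replicate 1 is the reddest, and 19 of the 27 tested genes have their highest level there.

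**Figure D3:**
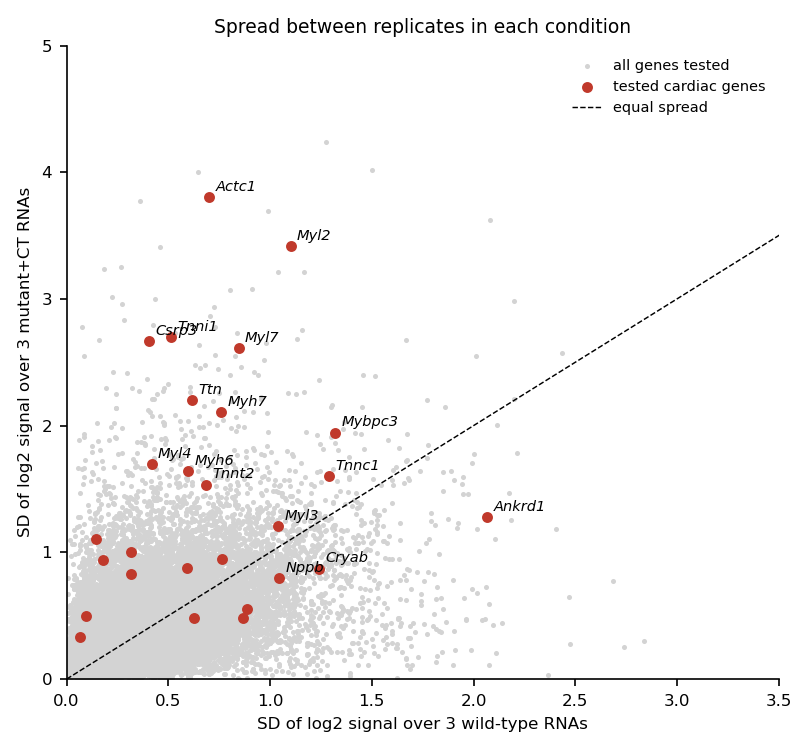
Standard deviation of log2 signal over the 3 wild-type RNAs (horizontal axis) and over the 3 mutant+CT RNAs (vertical axis) for the 27 tested cardiac genes (red) and all 20388 genes tested (grey), with a dashed line of equal spread. Of the 27 genes, 21 lie above the line, and Ankrd1 lies farthest to the right at 2.07.

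Among the 7 thick filament genes, which encode the myosin heavy and light chains and their binding protein, 6 were highest in mutant+CT replicate 1, and the exception was Myl3. The group's median log2 ratios were 3.81, -0.12 and -1.71 on arrays 1 to 3. Myl2 encodes the ventricular regulatory light chain. Myl2 read 7.82, 6.98 and 9.16 in wild-type replicates 1 to 3 and 12.88, 6.85 and 7.08 in the mutant+CT replicates, as log2 signal. On arrays 1 to 3 the log2 ratios of Myl2 were 5.06, -0.12 and -2.08, a mean of 0.95 ± 3.69 (SD, n = 3 arrays; limma adjusted p = 0.813). Only mutant+CT replicate 1 stood clear of the rest, 60.1-fold above the mean of the other 2 mutant+CT RNAs, and the conditions overlapped.

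Myl7, the atrial regulatory light chain, showed the same single high RNA together with lower mutant+CT levels on the other 2 arrays. Myl7 read 9.41, 11.10 and 10.32 in wild-type replicates 1 to 3 and 13.46, 9.32 and 8.62 in the mutant+CT replicates, as log2 signal. The log2 ratio of Myl7 was 4.05, -1.78 and -1.71 on the successive arrays, a mean of 0.19 ± 3.34 (SD, n = 3 arrays; limma adjusted p = 0.966). On arrays 2 and 3 the mutant+CT level was 3.42-fold and 3.26-fold below the wild-type level, and on array 1 it was 16.6-fold above.

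The 2 myosin heavy chain genes are neighbours on chromosome 14, with 28.7 kb between their probes (mm9, the build of the probe positions), and Myh7 (beta, the main ventricular form before birth) and Myh6 (alpha, the atrial and adult form) did not match on arrays 2 and 3. Myh7 read 10.07, 11.51 and 10.37 in wild-type replicates 1 to 3 and 12.20, 10.34 and 7.99 in the mutant+CT replicates, as log2 signal. Myh7 had log2 ratios of 2.13, -1.17 and -2.38 on arrays 1 to 3, a mean of -0.47 ± 2.34 (SD, n = 3 arrays; limma adjusted p = 0.865). The mutant+CT level of Myh7 was thus highest on array 1 and lowest on array 3. Myh6 read 9.08, 9.43 and 10.25 in wild-type replicates 1 to 3 and 13.20, 10.18 and 10.59 in the mutant+CT replicates, as log2 signal. Array by array, the log2 ratios of Myh6 were 4.12, 0.75 and 0.35, a mean of 1.74 ± 2.07 (SD, n = 3 arrays; limma adjusted p = 0.365). Myh6 was higher in mutant+CT on all 3 arrays, but the ratios on arrays 2 and 3 were small beside the spread of its 3 ratios.

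Mybpc3, which encodes the cardiac myosin-binding protein C, had ratios of 3.81, 0.81 and -0.47. Its levels were high in 3 RNAs: 11.88 and 11.44 in mutant+CT replicates 1 and 2 and 10.63 in wild-type replicate 2, with the other 3 between 8.07 and 8.79. Myl4, the atrial essential light chain, had ratios of 2.42, -0.12 and 0.44. Myl3, the ventricular essential light chain, was the exception named above. Myl3 read 13.40, 14.48 and 12.40 in wild-type replicates 1 to 3 and 13.01, 12.41 and 10.68 in the mutant+CT replicates, as log2 signal. On arrays 1 to 3 the log2 ratios of Myl3 were -0.39, -2.08 and -1.73, a mean of -1.40 ± 0.89 (SD, n = 3 arrays; limma adjusted p = 0.192). It was lower in mutant+CT on all 3 arrays, the smallest difference being on array 1, but the conditions overlapped because wild-type replicate 3 (12.40) was below mutant+CT replicates 1 and 2.

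The 6 thin filament genes encode cardiac actin, tropomyosin and the troponin subunits, and 4 of them were highest in mutant+CT replicate 1. The group's median log2 ratios were 2.56, -0.91 and -0.83. Actc1, the actin of the cardiac thin filament, had the largest spread among the mutant+CT RNAs of any of the 27 genes, a standard deviation of 3.81. Actc1 read 10.97, 9.70 and 9.81 in wild-type replicates 1 to 3 and 14.76, 8.28 and 8.06 in the mutant+CT replicates, as log2 signal. The log2 ratio of Actc1 was 3.79, -1.42 and -1.76 on the successive arrays, a mean of 0.20 ± 3.11 (SD, n = 3 arrays; limma adjusted p = 0.96). All 3 wild-type levels lay between the single high mutant+CT level and the 2 low ones, and the high level was 96.2-fold above the mean of the low ones.

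Tnni1, the slow skeletal troponin I that the embryonic heart uses, and Tnnt2, cardiac troponin T, are also neighbours, on chromosome 1 with 41.8 kb between their probes. Tnni1 read 9.13, 9.72 and 8.70 in wild-type replicates 1 to 3 and 12.38, 8.25 and 7.30 in the mutant+CT replicates, as log2 signal. Tnni1 had log2 ratios of 3.25, -1.47 and -1.40 on arrays 1 to 3, a mean of 0.13 ± 2.71 (SD, n = 3 arrays; limma adjusted p = 0.974). Tnnt2 read 8.46, 8.58 and 9.71 in wild-type replicates 1 to 3 and 12.25, 9.76 and 9.45 in the mutant+CT replicates, as log2 signal. Mutant+CT replicate 1 was the highest RNA for both genes. Array by array, the log2 ratios of Tnnt2 were 3.78, 1.18 and -0.26, a mean of 1.57 ± 2.05 (SD, n = 3 arrays; limma adjusted p = 0.404). On array 2, therefore, Tnnt2 was 2.27-fold above wild type and Tnni1 2.78-fold below it.

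Tnnc1, the calcium-binding subunit troponin C of heart and slow muscle, had ratios of 1.07, -2.21 and -1.52, and its highest level was in wild-type replicate 2 (11.72) and its lowest in mutant+CT replicate 3 (7.73). Tnni3, the adult cardiac troponin I, had ratios of 1.87, -0.40 and 0.14. Tpm1, alpha-tropomyosin, had the smallest differences in the group by its brightest probe, with ratios of 0.52, -0.38 and -0.21. It was read by 6 probes, which ran from -0.36 to 0.52 on array 1, from -1.11 to 0.51 on array 2 and from -0.21 to 0.58 on array 3.

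All 6 tested genes of the Z-disc, titin and M-band group were highest in mutant+CT replicate 1 and at least 2-fold higher on array 1. The group's medians on the 3 arrays were 1.81, -0.31 and -0.19. Ttn encodes titin, the spring that runs from Z-disc to M-band. Ttn read 7.49, 6.65 and 7.85 in wild-type replicates 1 to 3 and 10.27, 6.48 and 6.44 in the mutant+CT replicates, as log2 signal. On arrays 1 to 3 the log2 ratios of Ttn were 2.78, -0.17 and -1.41, a mean of 0.40 ± 2.15 (SD, n = 3 arrays; limma adjusted p = 0.879). Its probe was well above background on 2 of 3 arrays in wild type, so the low levels of this gene sit close to the floor of detection.

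Csrp3 encodes the muscle LIM protein of the Z-disc. Csrp3 read 8.39, 7.59 and 7.89 in wild-type replicates 1 to 3 and 11.36, 6.69 and 6.81 in the mutant+CT replicates, as log2 signal. The log2 ratio of Csrp3 was 2.97, -0.90 and -1.08 on the successive arrays, a mean of 0.33 ± 2.29 (SD, n = 3 arrays; limma adjusted p = 0.908). Its pattern was that of Actc1: a single high mutant+CT level, wild type between, and 2 mutant+CT levels below every wild-type level. Ldb3 encodes the Z-disc protein Cypher. Ldb3 read 7.69, 8.34 and 6.82 in wild-type replicates 1 to 3 and 9.09, 7.37 and 7.56 in the mutant+CT replicates, as log2 signal. Ldb3 had log2 ratios of 1.40, -0.97 and 0.74 on arrays 1 to 3, a mean of 0.39 ± 1.22 (SD, n = 3 arrays; limma adjusted p = 0.783). For Ldb3 the second highest level was in wild-type replicate 2, and the conditions overlapped.

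The remaining 3 tested genes of this group were high in the same RNA. Myom1, the M-band protein myomesin, had ratios of 2.21, 0.18 and -0.06, with 5 RNAs between 7.31 and 7.76 and mutant+CT replicate 1 at 9.52. Actn2, the alpha-actinin that cross-links actin at the Z-disc, had ratios of 1.10, -0.45 and 0.52. Tcap, the telethonin that caps titin, had ratios of 1.17, 0.09 and -0.33. Myom1 and Actc1 thus shared a CArG box within the windows printed above and differed on arrays 2 and 3, where Actc1 read -1.42 and -1.76. Myl7, with a CArG box too, read -1.78 and -1.71 there, near Actc1, and Myl3, also with one, was lower on all 3 arrays. The part of the element in these ratios was not tested. Ttn and Mybpc3, which shared a MEF2 motif, read 2.78 and 3.81 on array 1 and -0.17 and 0.81 on array 2. On array 3 they read -1.41 and -0.47. The wild-type level of Ttn on array 2 was not well above background. Casq2, also with a MEF2 motif, read 0.32, 1.02 and 0.92 on arrays 1 to 3. Ldb3, with a CArG box, read 1.40, -0.97 and 0.74. The part of the MEF2 motif was not tested either.

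The 3 genes for desmin and stress proteins had medians of 1.29, -0.81 and 1.69, and 1 of them was highest in mutant+CT replicate 1. Ankrd1, a nuclear and sarcomeric ankyrin-repeat protein that increases in strained heart muscle, was alone among the 27 genes in being at least 2-fold higher in mutant+CT on all 3 arrays (1.9% of all genes). Ankrd1 read 9.27, 12.19 and 8.20 in wild-type replicates 1 to 3 and 11.43, 13.39 and 11.00 in the mutant+CT replicates, as log2 signal. Array by array, the log2 ratios of Ankrd1 were 2.15, 1.20 and 2.80, a mean of 2.05 ± 0.81 (SD, n = 3 arrays; limma adjusted p = 0.106). The pairs on each array were apart by 4.45-fold, 2.30-fold and 6.98-fold, yet the conditions overlapped, since wild-type replicate 2 exceeded mutant+CT replicates 1 and 3.

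Cryab encodes alpha-B-crystallin, a small heat shock protein that binds desmin and titin. Cryab read 13.81, 14.79 and 12.33 in wild-type replicates 1 to 3 and 12.04, 13.15 and 11.42 in the mutant+CT replicates, as log2 signal. On arrays 1 to 3 the log2 ratios of Cryab were -1.76, -1.65 and -0.91, a mean of -1.44 ± 0.46 (SD, n = 3 arrays; limma adjusted p = 0.118). It was lower in mutant+CT on every array, and its second probe read -1.82 on array 1. The wild-type RNAs also differed among themselves, with standard deviations of 1.24 in wild type and 0.873 in mutant+CT. Des encodes desmin, the intermediate filament that links Z-discs. Des read 8.62, 9.66 and 7.89 in wild-type replicates 1 to 3 and 9.91, 8.84 and 9.59 in the mutant+CT replicates, as log2 signal. The log2 ratio of Des was 1.29, -0.81 and 1.69 on the successive arrays, a mean of 0.72 ± 1.35 (SD, n = 3 arrays; limma adjusted p = 0.587). Des was lower in mutant+CT on array 2 alone, the array with swapped dyes. Its probe was printed on several spots, and the log2 ratios of those spots varied by 0.13, 0.032 and 0.031 (SD over 10, 10 and 8 spots) on arrays 1 to 3, less than the differences between arrays; spots measure printing and scanning error only.

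Together, 3 of the 27 genes (Ankrd1, Casq2 and Myh6) were higher in mutant+CT on all 3 arrays, where the share of all genes was 20.3%, and 2 (Cryab and Myl3) were lower on all 3, where it was 17.4%. Among the 27 the shares were 11.1% and 7.41%, and 0 of the 27 were at least 2-fold lower on all 3 arrays (0.991% of all genes).

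By their brightest probes, 0 of the 4 tested excitation and calcium genes were at least 2-fold higher on array 1. The 2 highest in mutant+CT replicate 1 were Atp2a2 and Gja5. The group's medians were 0.47, -0.14 and 0.18. These counts depend on the probe: the other Atp2a2 probe read 1.04 on array 1 and was highest in wild-type replicate 2. The second kept Gja5 probe was highest in wild-type replicate 1. Ryr2 encodes the channel that releases calcium from the sarcoplasmic reticulum. Ryr2 read 8.56, 9.64 and 7.93 in wild-type replicates 1 to 3 and 9.14, 8.21 and 8.87 in the mutant+CT replicates, as log2 signal. Ryr2 had log2 ratios of 0.59, -1.43 and 0.95 on arrays 1 to 3, a mean of 0.03 ± 1.28 (SD, n = 3 arrays; limma adjusted p = 0.985). Its highest level was in wild-type replicate 2, and its ratio was below 0 on array 2 alone.

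Casq2, calsequestrin, stores calcium inside the reticulum. Casq2 read 6.70, 6.57 and 6.66 in wild-type replicates 1 to 3 and 7.01, 7.59 and 7.58 in the mutant+CT replicates, as log2 signal. Array by array, the log2 ratios of Casq2 were 0.32, 1.02 and 0.92, a mean of 0.75 ± 0.38 (SD, n = 3 arrays; limma adjusted p = 0.251). All 3 mutant+CT levels were above all 3 wild-type levels, but the levels were low and the probe was well above background on 2 of 3 arrays in wild type. Casq2 thus passed the filter through mutant+CT alone, the condition where it was higher, so the order of its levels is no independent support for a difference. It was not tested when probes had to be above background in both channels. With Agilent's processed signals its ratios were 0.82, 2.56 and 1.79, a mean of 1.72 ± 0.87 (SD, n = 3 arrays). Atp2a2 encodes the SERCA pump that returns calcium to the reticulum. Atp2a2 read 11.13, 10.57 and 10.59 in wild-type replicates 1 to 3 and 11.60, 10.36 and 10.03 in the mutant+CT replicates, as log2 signal. On arrays 1 to 3 the log2 ratios of Atp2a2 were 0.47, -0.21 and -0.56, a mean of -0.10 ± 0.52 (SD, n = 3 arrays; limma adjusted p = 0.916). Mutant+CT was highest on array 1 and lowest on array 3. Gja5 encodes the gap junction protein connexin of atrial and conduction cells. Gja5 read 6.71, 6.77 and 6.89 in wild-type replicates 1 to 3 and 7.17, 6.70 and 6.19 in the mutant+CT replicates, as log2 signal. The log2 ratio of Gja5 was 0.47, -0.08 and -0.71 on the successive arrays, a mean of -0.11 ± 0.59 (SD, n = 3 arrays; limma adjusted p = 0.916). These levels were near the floor, with mutant+CT above background on 2 of 3 arrays. The second kept Gja5 probe read -0.24, 0.06 and 0.11, the opposite sign on each array. It was near the floor too, with wild type above background on 1 of 3 arrays.

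Of the natriuretic peptides, hormones secreted by heart muscle, Nppb was tested and Nppa was not. Nppb read 8.75, 9.51 and 7.44 in wild-type replicates 1 to 3 and 8.72, 9.56 and 7.98 in the mutant+CT replicates, as log2 signal. Nppb had log2 ratios of -0.03, 0.05 and 0.53 on arrays 1 to 3, a mean of 0.19 ± 0.30 (SD, n = 3 arrays; limma adjusted p = 0.788). The 2 genes lie 15.5 kb apart by their probes on chromosome 4, and Nppa read 6.87, 6.52 and 6.68 in wild type and 8.96, 6.51 and 6.33 in mutant+CT. Only mutant+CT replicate 1 was apart from the other RNAs for Nppa, by a log2 ratio of 2.09 on array 1 against -0.03 for Nppb. The repeated spots of Nppa varied there by 0.17 (SD, 10 spots).

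The 7 genes not tested were too dim on too many arrays. Nppa was well above background in 4 of the 6 channels, the phosphoregulator of SERCA phospholamban (Pln) in 3, Smpx and the calcium channel Cacna1c in 2, the Z-disc gene Myoz2 in 1, and Sln and the pacemaker channel Hcn4 in 0. For Pln and Smpx, mutant+CT replicate 1 read 8.15 and 8.35 and the other 5 RNAs 6.10 to 6.50 and 6.08 to 6.64. The wild-type channel of array 1 was not well above background for either probe, so the size of that difference was not measured: the array 1 ratios of 1.87 and 1.96 became 6.13 and 5.17 with Agilent's processed signals, and that of Nppa went from 2.09 to 3.59. No level of Sln or Hcn4 could be told from background, and differences between their channels were not detectable. Of the 27 tested genes, 24 were well above background in all 6 channels, and the other 3 were Ttn, Casq2 and Gja5. Ttn and Casq2 passed the filter through mutant+CT alone, and Gja5 through wild type alone.

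Genes read by several probes showed how far the choice of probe matters. There were 10 such genes with 27 probes, and the brightest probe stands for the gene here. The second Myl2 probe, at the level of background, read 0.12 on array 1 where the bright one read 5.06, and the dim Myh6 probe read 0.41 where the bright one read 4.12. On arrays 1 to 3 the dimmer kept probe of Ttn read 0.38, 0.21 and 0.37, where the brightest read 2.78, -0.17 and -1.41. The dimmer Ldb3 probe read 0.52, -0.29 and -0.30, where the brighter read 1.40, -0.97 and 0.74. Bright probes of a gene differed too. The 2 Atp2a2 probes read 0.47 and 1.04 on array 1, -0.21 and -1.10 on array 2, and -0.56 and 0.32, with opposite signs, on array 3. The 2 Cryab probes read -1.76 and -1.82, then -1.65 and -0.75, then -0.91 and -0.99, with the same sign on each array. By position, 8 of the 51 probes covered more than their 60 bases of the mm9 genome, as a probe across an exon junction does. The brightest Actc1 probe lay at chr2:113873064-113873123 and that of Myl2 at chr5:122556732-122556791.

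**Figure D4:**
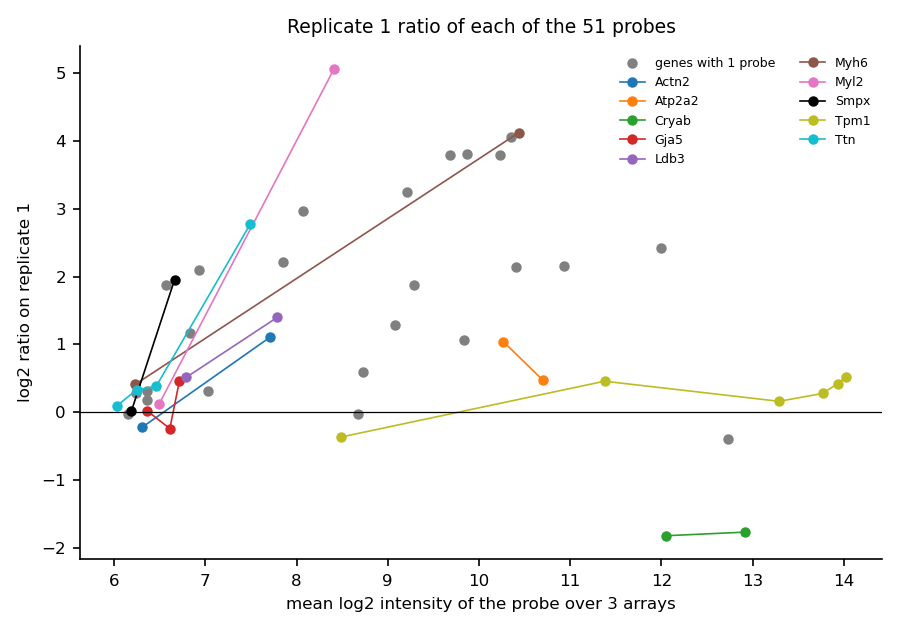
Log2 ratio on array 1 (vertical axis) against the mean log2 intensity over 3 arrays (horizontal axis) for each of the 51 probes, with probes of the same gene joined by a line in the colour of the key and probes of genes with 1 probe in grey. The bright probes of Myl2 and Myh6 read 5.06 and 4.12, and their dim second probes 0.12 and 0.41.

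Markers of heart chambers among the 34 genes were also read apart. Ventricular genes (Myl2, Myl3 and Myh7) had medians of 2.13, -1.17 and -2.08 on the 3 arrays. The tested atrial and conduction genes (3 of 6: Myl7, Myl4 and Gja5) had medians of 2.42, -0.12 and -0.71. With 3 genes in a list, each median is the value of 1 gene. The -0.71 was that of Gja5, whose mutant+CT level was not above background on array 3. Myl4 read 0.44 and Myl7 -1.71 there. No test was made of the difference between the 2 lists.

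Other genes of the same apparatus, taken from general knowledge, had medians near 0 on array 1. Of 24 further sarcomere genes, 19 were tested, with medians of 0.18, 0.00 and 0.28. Of these 19, 8 were highest in mutant+CT replicate 1, against 18.5% of all genes. At least 2-fold higher on array 1 were 5 of the 19, against 9.02% of all genes. The adjusted threshold was passed by 0 (3 at an unadjusted p under 0.05). The 3 with the smallest p were Obsl1, an obscurin-like cytoskeletal linker, with ratios of 2.28, 2.59 and 1.46, the muscle ubiquitin ligase Trim63 with 1.30, 0.53 and 2.33, and filamin C (Flnc) with -0.25, -0.89 and -1.11. Of 25 further excitation and calcium genes, 20 were tested, with medians of 0.04, -0.20 and -0.36 and 0 passing (3 at an unadjusted p under 0.05). The smallest p values were those of the calcium channel Cacna1d (-1.10, -1.33 and -1.69), the reticulum protein Hrc (-0.24, -0.86 and -0.94) and the potassium channel Kcnj5 (0.86, 0.54 and 0.42). Of 8 energy and oxygen genes of heart muscle, 5 were tested, with medians of 0.02, 0.40 and 1.07 and 0 passing (2 at an unadjusted p under 0.05). The smallest p values were those of myoglobin (Mb; 0.43, 1.58 and 1.07), Pgam2 (-0.48, -0.98 and -0.61) and Cox7a1 (0.02, 0.40 and 1.10).

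Some genes of other cell types also stood high in mutant+CT replicate 1, to a different extent in each list. Of 11 mesenchyme markers such as collagens, 10 were at least 2-fold higher on array 1 and 10 had their highest level in that RNA. Their medians were 3.30, -1.45 and -1.15. Their summed linear signal was 269466 there, 7470 and 19406 in mutant+CT replicates 2 and 3, and 20228 to 33194 in wild type. Of 10 tested heart transcription factors (of 12 listed), 9 were highest in that RNA, with medians of 0.91, -1.31 and -0.91 and a summed signal of 44170 against 8839 to 29376 in the others. Nkx2-5, an early marker of heart muscle precursors, read 1.69, -0.87 and -0.73, and Hand2, a factor of the right ventricle and of mesenchyme, read 4.39, -2.60 and -2.80. The smallest p values of this list were those of Gata4 (-0.70, -0.37 and -0.94), Tbx5 (2.24, 0.05 and 0.23) and Isl1 (0.85, -1.81 and -1.36). Gata4 was thus lower in mutant+CT on all 3 arrays, and Tbx5 was lower on none. Endothelial genes had medians of 0.84, -1.05 and -0.92, with 4 of 8 highest in that RNA. Their summed signal was 18008 there, below the 21647 of wild-type replicate 2. The largest log2 level in both RNAs was that of Egfl7, 13.03 in mutant+CT replicate 1 and 14.12 in wild-type replicate 2. Pecam1, Kdr, Tek, Tie1 and Emcn were higher in mutant+CT replicate 1 than in wild-type replicate 2, and Egfl7, Cdh5 and Esam were lower. The receptor gene Kdr read 3.24, -1.46 and -1.80. The smallest p values were those of Pecam1 (1.24, 0.70 and 1.84), Esam (-0.41, -2.26 and -0.80) and Cdh5 (0.34, -1.74 and -1.55). Of 7 tested smooth muscle genes, 4 were highest in that RNA, but the list's medians were 0.33, -0.18 and -0.10. Their summed signal of 54773, against 8667 to 26668 in the others, came mostly from Acta2 and Tagln, with log2 levels of 15.11 and 13.44 there; Cnn1, Smtn and Mylk were not highest in that RNA.

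Other lists are given for comparison. For 9 tested skeletal muscle genes (of 14) the medians were 0.85, 0.46 and 0.98, and the skeletal muscle factors Myod1, Myog, Myf5 and Myf6 were too dim to test. Visceral endoderm genes had medians of 2.04, 1.13 and 0.83 with 1 of 8 highest in mutant+CT replicate 1. Neural progenitor genes (-4.03, -1.64 and -3.78), naive pluripotency genes (1.10, 0.56 and 3.07) and erythroid genes (-0.63, -2.50 and -3.74) had 0 members highest there. The part of these cell types in the ratios of the cardiac genes was not tested.

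**Figure D5:**
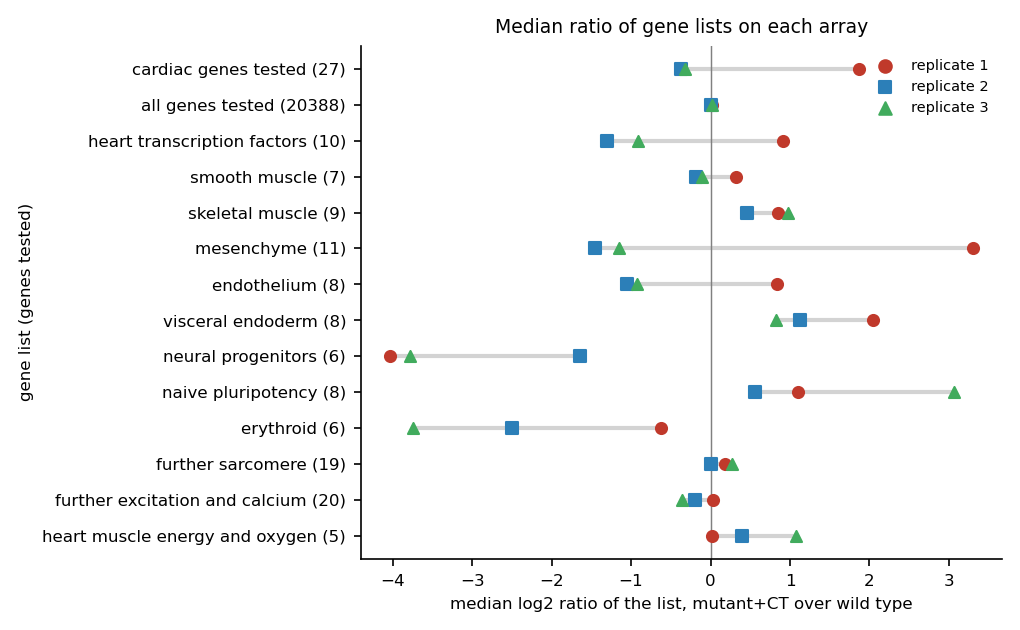
Median log2 ratio of mutant+CT over wild type (horizontal axis) for the 27 tested cardiac genes, all genes tested and marker lists (rows, number of genes tested in brackets) on arrays 1 (red circles), 2 (blue squares) and 3 (green triangles), with a grey line from the lowest to the highest. The cardiac genes lie at 1.87 on array 1 and at -0.38 and -0.33 on the others, and mesenchyme genes at 3.30 on array 1.

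Without array 1 the fit rested on the 2 remaining arrays, 1 of each dye orientation. limma then called 147 of 20388 genes at an adjusted p under 0.05 (0.721%), and 0 of the 27 cardiac genes. Of the 27, 10 had an unadjusted p under 0.05, where 2686 of all 20388 genes did. The smallest adjusted p among the 27 was that of Myl3 (0.0753 by limma), with a mean log2 ratio of -1.90. Next came Tnnc1 at -1.87 (adjusted p = 0.0839 by limma) and Myl7 at -1.74 (adjusted p = 0.0881 by limma), where the means of Myl3, Tnnc1 and Myl7 over all 3 arrays were -1.40, -0.89 and 0.19. Ankrd1 kept its sign, at 2.00 over arrays 2 and 3. With all 3 arrays and a dye term in the fit, the means of Actc1, Myl7 and Tnni1 also changed sign, to -0.20, -0.30 and -0.27.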

How the data were processed

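Per the file headers, the authors scanned each array and extracted spot intensity with Agilent Feature Extraction 10.7.3.1, which also gives a log10 ratio of the dyes; limma is named in the submitters' processing notes. The deposited value table holds log2 ratios whose scale and direction were not stated: its columns correlated at 0.994 to 0.998 with the ratios computed here, with medians of -0.02, 0.01 and -0.02, so it runs as mutant+CT over wild type, and it served as an alternative. From the mean spot intensity and median background, limma 3.58.1 (R 4.3.3, statmod 1.5.0) applied normexp correction (offset 50, which draws ratios of dim probes toward 0) and loess within each array, with control spots at weight 0 and outlier spots left out; repeated spots were averaged. A probe was kept when over 50% of its spots exceeded background clearly in at least 1 condition, on each of its 3 arrays, and a ratio was had on every array (26316 of 39429 probes), and the brightest kept probe stood for its gene. Channel levels were scaled between arrays with Aquantile. Ratios, turned to mutant+CT over wild type, were tested with limma's moderated test and adjusted over all 20388 genes; the fit was tested on simulated data. Genes were named from RefSeq (GRCm38.p6) accessions for 30708 spots and otherwise as on the array.

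The members, gene lists and tests were chosen with earlier results of these data known. Every tested gene of the 34 is described by role. Levels in all 6 channels are given for up to 3 genes per role with the largest range between arrays. They are also given for each gene with 1 sign on all 3 arrays. Other lists name up to 3 genes by smallest p. Nkx2-5, Hand2, Kdr, Egfl7, Tek, Tie1, Emcn, Acta2, Tagln and Mylk were named after their values were seen. Alternatives changed the background correction, normalization, probe filter, choice of probe, variance model and arrays. The labels call the replicates biological but do not tie them to separate lines, so p-values measure the spread between these samples.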

Additional observations from a re-analysis of the deposited data

How the results depend on the processing

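The 27 cardiac genes had 0 calls at an adjusted p under 0.05 in every setting run except 1, the fit of the separate channels with the array as a replicate block and a dye term (correlation within spots 0.90), added after the data were seen, which called 4 of them and 3812 genes. The planned separate-channel fit with the array as a replicate block (correlation 0.31) called 465 genes; the ratio on an array already pairs the RNAs of 1 replicate number. Counts over all genes, 0 in the fit reported, also moved to 290 with Agilent's processed signals, 298 at an adjusted p under 0.1, 13 with probes above background in both channels and 176 with a trended and robust variance prior, and ran from 0 to 147 with an array left out. The cause of these differences in count was not tested.

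Mean log2 ratios that changed sign were those of Csrp3 (-0.072) and Tnni1 (-0.061) with Agilent's processed signals, Tpm1 (0.037) with median centring, and Actc1 (-0.20), Myl7 (-0.30), Ryr2 (-0.33) and Tnni1 (-0.27) with a dye term. Gja5 read 0.079 in the setting with Agilent's signals, where the brightest probe was chosen anew; its usual probe read -0.72 there, without a change of sign. With 1 array left out the means ran from -1.10 to 2.47 for Myl2, -1.74 to 1.17 for Myl7, -1.44 to 0.93 for Tnni1, -0.13 to 1.00 for Tnni3, -1.59 to 1.18 for Actc1, -0.79 to 1.30 for Ttn, -0.42 to 0.77 for Ryr2, -0.99 to 1.03 for Csrp3, -0.12 to 0.63 for Tcap, -0.12 to 1.07 for Ldb3, -0.29 to 0.15 for Tpm1, -1.78 to 0.48 for Myh7, -0.39 to 0.13 for Atp2a2 and -0.39 to 0.20 for Gja5. The spread was larger in mutant+CT for 20 or 21 of 27 genes, and mutant+CT replicate 1 was highest for 19, under each of 5 scalings. The median over the 27 genes ran from -0.24 to 0.93 with an array left out, the lower end without array 1.

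Signal over background left 7 of the 34 genes untested, and differences for Sln and Hcn4 were below detection. It also limits 3 of the tested genes, Ttn, Casq2 and Gja5.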
